A study of Mus musculus with 9 samples.

Results

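Of the 253457 ATAC-seq peaks called in 9 libraries of mouse brain endothelial cells (ECs), 6660 (2.63%) lay in an exon and over 1000 bp from the nearest transcription start site (TSS), by the annotation deposited with the peaks. They were taken by that annotation alone, which places a peak by its centre, and are called exonic peaks from here on. They named exons of 2836 genes. A further 10753 peaks in exons lay within 1000 bp of a TSS and were left out.

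The libraries cover 2 genotypes at 2 ages. EC-K4KO mice (knockouts, 3 young and 2 old libraries) carry floxed Klf4, which encodes a zinc-finger transcription factor, and a tamoxifen-inducible Cre driven by the VE-cadherin (Cdh5) promoter, while WT Cre mice (controls, 2 young and 2 old) carry the Cre alone, on a C57BL/6J background. By the methods of the study, both genotypes received tamoxifen, and live ECs were sorted by flow cytometry before Omni-ATAC. The labels give ages only as young and old, and all young libraries share 1 name prefix and all old libraries another, so that age and that prefix cannot be told apart.

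ATAC-seq marks DNA that the transposase Tn5 can enter, mainly promoters and enhancers. Most exons away from a TSS lie in transcribed, nucleosome-covered DNA and carry no peak. The known exceptions are start sites of shorter transcripts inside a gene, enhancers that overlap coding sequence, CpG islands in the gene body and binding sites of factors such as CTCF, the insulator protein that anchors chromatin loops. Sequence in a coding exon is also GC-rich and conserved for its code, which sets it apart from intronic and intergenic DNA.

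The lists held from 6157 to 45026 peaks, the shortest in young WT Cre and the longest in old EC-K4KO, and the read depth behind them is unknown. Young EC-K4KO replicate 1 stood apart. Of its 764 exonic peaks 60.1% overlapped no peak of another library, against 10.3% to 27.0% in the other 8, and 74.3% had their centre in coding sequence (CDS), against 45.6% to 56.6%. Promoter-TSS peaks were found at 10 to 19 of 25 endothelial marker genes, at 0 to 6 of 15 mural genes (0 in all 5 young libraries and old WT Cre replicate 1), 0 to 4 of 15 astrocyte genes, 0 to 5 of 15 neuronal genes, 0 to 2 of 15 oligodendrocyte genes and 0 of 15 microglial genes. The endothelial count was 10 in both young controls, which had the shortest lists, and 19 in each of the 4 old libraries. Lists that mark no cell type had such peaks at 12 to 16 of 18 (AP-1 and immediate early genes) and 12 to 16 of 26 (KLF and SP genes). No share over all genes is set beside these counts. In bulk libraries such as these, fewer cells of a type and less signal per cell cannot be told apart. Klf4 had a promoter-TSS peak in all 9 libraries, between the strongest 3.82% of the list in young EC-K4KO replicate 1 and 58.3% in young WT Cre replicate 1, and a peak list gives no check of the deletion itself.

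The central 200 bases of 6 coding exonic peaks are given here because they span the range of patterns described further on, from a peak in every library to peaks at 1 age only. They were read from the forward strand of GRCm38 (mm10), and capitals mark CG dinucleotides, which are rare in bulk mammalian DNA and dense in CpG islands. Angptl6 exon 2 of 6 (chr9:20878258-20878457, gene on the reverse strand) and Prdm2 exon 6 of 10 (chr4:143161999-143162198, reverse) held a peak in all 9 libraries. Cacna1a exon 46 of 46 (chr8:84639346-84639545, forward) had a peak in every library except the young controls. Ctcf exon 3 of 12 (chr8:105664302-105664501, forward) had one in all 5 young libraries and in no old one. Rad54b exon 7 of 15 (chr4:11599593-11599792, forward) had one in all 4 old libraries and no young one. Kdr exon 27 of 30 (chr5:75941825-75942024, reverse) had one in the 4 old libraries and in young EC-K4KO replicate 3. These counts are of peaks that overlap the region, whose centre was in the exon in 8 of the 9 libraries for Prdm2, in 2 of the 4 for Rad54b and in all for the other windows.
Angptl6: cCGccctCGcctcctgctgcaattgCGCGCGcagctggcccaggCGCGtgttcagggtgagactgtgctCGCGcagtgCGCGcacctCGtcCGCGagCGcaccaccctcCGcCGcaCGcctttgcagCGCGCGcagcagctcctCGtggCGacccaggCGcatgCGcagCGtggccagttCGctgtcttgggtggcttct
Prdm2: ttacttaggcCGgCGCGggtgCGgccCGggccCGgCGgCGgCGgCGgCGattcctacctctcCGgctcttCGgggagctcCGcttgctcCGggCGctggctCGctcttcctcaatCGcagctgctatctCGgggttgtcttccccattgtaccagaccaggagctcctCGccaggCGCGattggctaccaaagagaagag
Cacna1a: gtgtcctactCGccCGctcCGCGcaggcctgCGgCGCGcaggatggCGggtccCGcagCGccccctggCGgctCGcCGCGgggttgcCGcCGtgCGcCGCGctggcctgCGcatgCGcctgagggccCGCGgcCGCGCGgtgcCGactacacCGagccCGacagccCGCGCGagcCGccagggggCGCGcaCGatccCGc
Ctcf: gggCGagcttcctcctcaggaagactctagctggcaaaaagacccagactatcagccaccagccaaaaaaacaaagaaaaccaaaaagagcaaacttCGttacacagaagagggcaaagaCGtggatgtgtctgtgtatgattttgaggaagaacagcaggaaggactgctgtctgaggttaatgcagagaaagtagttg
Rad54b: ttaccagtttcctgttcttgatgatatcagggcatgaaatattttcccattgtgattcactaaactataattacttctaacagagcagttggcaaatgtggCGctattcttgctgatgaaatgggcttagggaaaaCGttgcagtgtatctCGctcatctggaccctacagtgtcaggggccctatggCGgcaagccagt
Kdr: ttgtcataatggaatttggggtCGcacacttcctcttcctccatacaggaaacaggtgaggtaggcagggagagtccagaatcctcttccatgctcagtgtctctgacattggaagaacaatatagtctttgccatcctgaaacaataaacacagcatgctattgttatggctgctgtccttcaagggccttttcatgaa

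The first 3 windows held 27, 22 and 37 CG dinucleotides, and the last 3 held 3, 4 and 1. All 200 bases were exonic in the Angptl6, Cacna1a and Ctcf windows, while 127 were exonic for Prdm2, 117 for Rad54b and 137 for Kdr, in any transcript of GENCODE M21. The Rad54b window held 1 match to the AP-1 motif (TGANTCA) and the Prdm2 window 1 match to the KLF motif (CCNCACCC, either strand). Both of these windows were exonic only in part, and whether either match lay in exonic bases was not tested. Over the central 300 bases of all 253457 peaks these motifs matched in 11.3% and 15.2%.

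Most exonic peaks were in a last or an internal exon. The distance limit itself left out exon peaks close to a TSS. The share of exonic sequence that lies in last exons is not set beside these counts. Of the 6660, 3295 (49.5%) were annotated to the last of 2 or more exons, 2610 (39.2%) to an internal exon, 571 (8.57%) to the first of several and 184 (2.76%) to the exon of a single-exon transcript. The median exon number was 5 (quartiles 2 and 11), and the highest was exon 245, in the titin gene Ttn. By GENCODE M21 the centre fell in CDS for 3675 peaks (55.2%), in a 3′ UTR for 1954 (29.3%), in a 5′ UTR for 561 (8.42%), in another exon for 396 (5.95%) and outside any exon for 74. Of 6446 peaks whose gene symbol is in GENCODE, 6384 (99.0%) were centred in an exon of that gene. The gene of the exon was not the gene of the nearest TSS for 2727 peaks (40.9%), and the median distance to the TSS was 12951 bp.

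**Figure D1:**
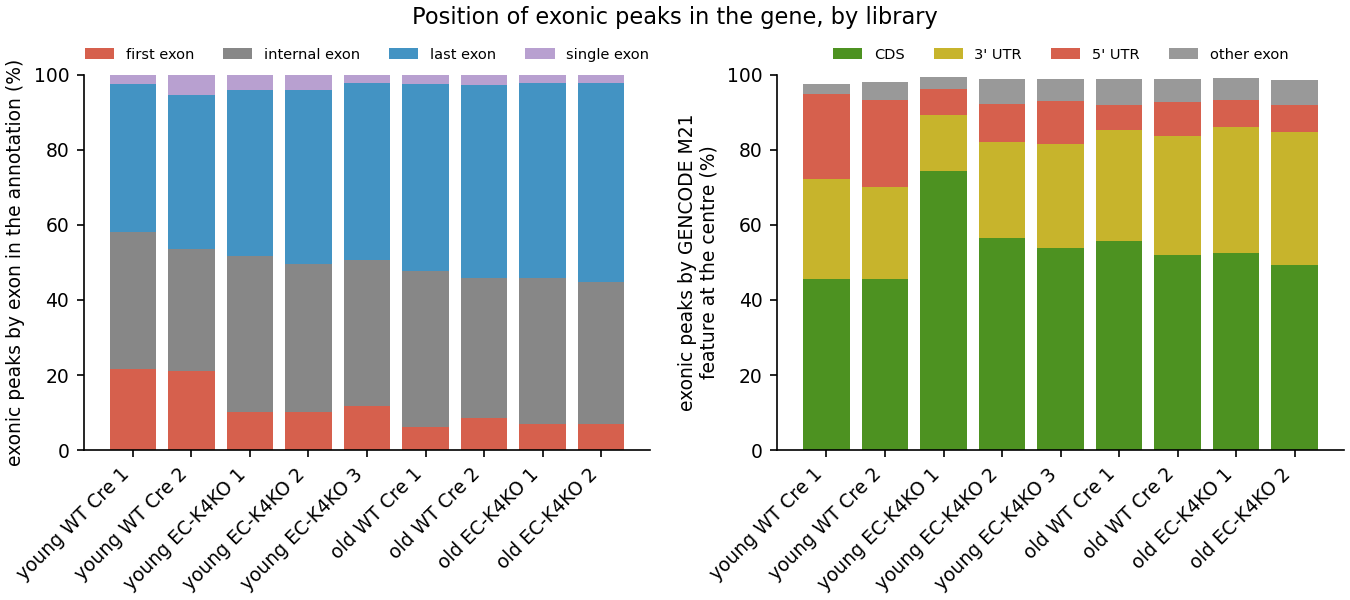
Stacked bars give, for each of the 9 libraries (x axis), the percentage of exonic peaks by exon in the deposited annotation (left) and by GENCODE feature at the peak centre (right; the remainder lay outside GENCODE exons). The first-exon share was 21.2% and 21.5% in young WT Cre and at most 11.6% elsewhere, and the CDS share was highest in young EC-K4KO replicate 1 (74.3%).

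Many of these peaks lay near a start site that the deposited annotation did not use. GENCODE M21 placed a transcript start within 1000 bp of 1778 of them (26.7%). The share was 43.0% and 43.7% in the young controls, 28.3% to 30.7% in the young knockouts and 22.9% to 27.6% in the 4 old libraries, while it was 11.0% to 17.8% for intronic and 7.74% to 15.4% for intergenic peaks that were likewise over 1000 bp from the TSS of the deposited annotation. It reached 91.8% for peaks in the first of several exons, against 32.7% in internal and 10.2% in last exons. In each library the exonic peaks near a GENCODE start were wider (medians of 355 to 457 bp) than the rest (286 to 346 bp), and they were overlapped by more of the other 8 libraries (means of 39.3% to 88.6% against 21.5% to 74.4%). Pooled over libraries, their GC content was 62.0% against 54.6%, and an AP-1 motif lay in 3.99% against 11.7%.

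Exonic peaks were mid-sized and ranked low. Their median width was 307 to 367 bp by library, and the widest reached 2822 bp. When each list was ordered by its -log10 p (rank 0% is the strongest peak), the median exonic peak sat at 55.6% to 67.0% of the list, while promoter-TSS peaks sat at 15.4% to 37.7%. Intronic and intergenic peaks over 1000 bp from a TSS ranked about as low, at 55.0% to 71.0% and 58.6% to 71.7%. From 57.6% to 68.5% of exonic peaks were in the weaker 50% of their list. Some were among the strongest of all. Each library had 4 to 10 exonic peaks among its 500 strongest, and the best exonic rank was between 1 and 16.

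Within each library, exonic peaks were compared with intronic and intergenic peaks, also over 1000 bp from a TSS, by a two-sided exact sign-flip permutation test over the 9 libraries. The 16 tests were adjusted together by the Benjamini-Hochberg (BH) method, and 12 passed an adjusted p of 0.05. Libraries share regions, so these p-values measure only how steady a difference was over the 9 libraries. Whether exonic sequence without a peak differs from intronic and intergenic DNA in the same way, in GC or in motifs, was not tested. GC content of the central 300 bp was 55.2% to 60.8% in exonic peaks and exceeded that of intronic peaks by 7.61 ± 1.20 points (SD, n = 9, exact test, adjusted p = 0.00893) and that of intergenic peaks by 7.11 ± 1.10 points (exact test, adjusted p = 0.00893), higher in 9 of 9 libraries in both cases. Exonic peaks were wider than intronic ones by 21 ± 14.1 bp in 9 of 9 libraries (exact test, adjusted p = 0.00893) and wider than intergenic ones by 18.5 ± 17.1 bp in 8 of 9 (exact test, adjusted p = 0.0208). Their rank differed by -1.75 ± 3.75 points from intronic and -4.22 ± 5.56 points from intergenic peaks, and neither passed the test (exact test, adjusted p = 0.214 and 0.0673).

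The motif content of exonic peaks differed too. AP-1 is the Fos and Jun family of stimulus-responsive factors. Its motif lay in 5.30% to 12.2% of exonic peaks, a difference of -7.70 ± 2.76 points from intronic and -5.60 ± 2.76 points from intergenic peaks, lower in 9 of 9 libraries in both cases (exact test, adjusted p = 0.00893 for each). The CTCF core motif lay in 0.916% to 7.22% of exonic peaks, higher than in intronic peaks by 2.28 ± 0.809 points and than in intergenic peaks by 1.67 ± 0.668 points, in 9 of 9 libraries (exact test, adjusted p = 0.00893 for each). The ETS motif (CCGGAAG or ACAGGAAG), of a factor family that includes the endothelial regulators Erg and Fli1, was higher by 1.16 ± 1.31 points than in intronic peaks (8 of 9 libraries, exact test, adjusted p = 0.0365, and 0.0625 to 0.0729 without any 1 of 6 of the 9 libraries) and by 2.53 ± 1.74 points than in intergenic peaks (8 of 9, exact test, adjusted p = 0.0156). The KLF motif differed by -0.211 ± 1.76 and 0.202 ± 1.72 points (exact test, adjusted p = 0.742 for each). In exonic peaks the CTCF share was 0.916% to 4.50% in the 5 young and 4.63% to 7.22% in the 4 old libraries. The 2 other classes were split in the same way, with 0.324% to 1.76% and 2.65% to 3.82% in intronic peaks and 0.463% to 1.90% and 2.82% to 5.23% in intergenic peaks. The young lists were also shorter (6157 to 27992 peaks) than the old (32555 to 45026). This difference between the ages was not tested, and no share over all peaks by library is set beside it.

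On average 26.5% to 80.5% of the other 8 libraries overlapped an exonic peak, which was 4.16 ± 4.64 points above intronic (8 of 9 libraries, exact test, adjusted p = 0.0365, and 0.0568 to 0.0729 without any 1 of 6 of the 9 libraries) and 7.58 ± 5.85 points above intergenic peaks (7 of 9, exact test, adjusted p = 0.0250). When all classes were also held over 1000 bp from every GENCODE start, the differences in GC, AP-1 and CTCF still passed (exact test, adjusted p = 0.0104 for each), while those in width (4.89 and 3.67 bp, exact test, adjusted p = 0.523 and 0.658), recurrence (1.38 and 4.60 points, exact test, adjusted p = 0.456 and 0.0703) and ETS (0.298 and 1.86 points, exact test, adjusted p = 0.658 and 0.0625) did not.

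**Figure D2:**
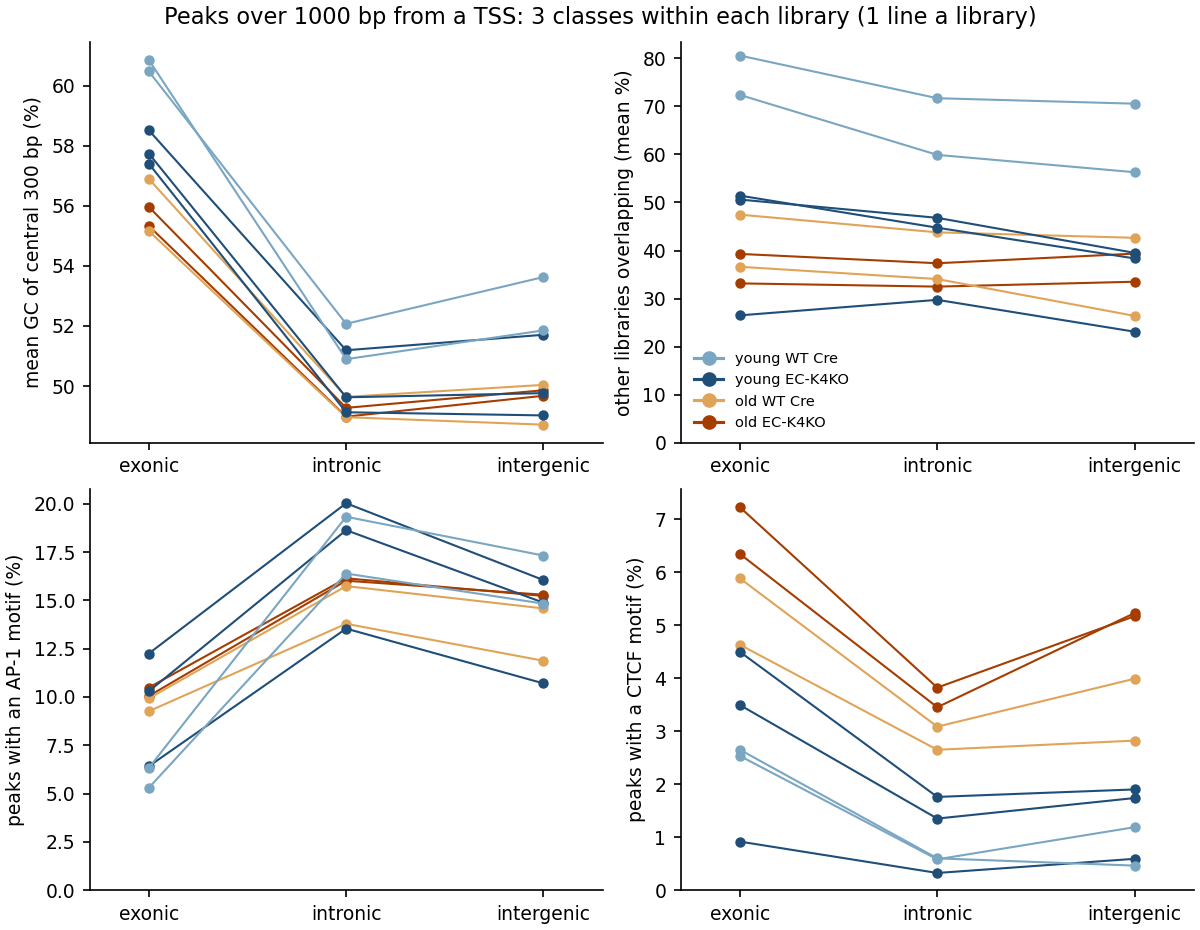
Each line is 1 of the 9 libraries, coloured by group, and joins its exonic, intronic and intergenic peaks over 1000 bp from a TSS (x axis) for mean GC (%), mean percentage of the other 8 libraries with an overlapping peak, and percentage of peaks with an AP-1 or CTCF motif (y axes). GC and CTCF were higher and AP-1 lower in exonic peaks in 9 of 9 libraries.

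Per megabase of GENCODE sequence over 1000 bp from any GENCODE start, exons held 1.14 to 20.7 peaks, introns 0.819 to 16 and intergenic DNA 0.591 to 9.91. Exons were above introns in 9 of 9 libraries, by 1.20 to 1.76 times. The highest ratio was in young EC-K4KO replicate 1 (9.81 against 5.58 peaks per megabase), the library that stood apart.

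The number of exonic peaks was lowest in the 2 shortest lists and highest in the longest. There were 79 and 151 in the young controls, 764, 544 and 645 in the young knockouts, 1123 and 816 in the old controls, and 1403 and 1135 in the old knockouts. Both young controls were below, and both old knockouts above, every library of the other groups. A two-sided exact permutation test (genotype within age, age within genotype, 60 arrangements, smallest p 0.0167, 12 tests adjusted by BH) gave 418 more exonic peaks in EC-K4KO than in WT Cre (536 in young, 299.5 in old, exact test, adjusted p = 0.04) and 736 more in old than in young (854.5 in WT Cre, 618 in EC-K4KO, exact test, adjusted p = 0.04). As a share of the list they made up 1.43 ± 0.205% (SD, n = 2) in the young controls, 2.55 ± 0.569% (n = 3) in the young knockouts, 2.53 ± 0.0367% (n = 2) in the old controls and 3.01 ± 0.150% (n = 2) in the old knockouts. The share was higher in EC-K4KO by 0.801 points (exact test, adjusted p = 0.04), and the age difference of 0.781 points did not pass (exact test, adjusted p = 0.133).

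With every list reduced to its 6157 strongest peaks, neither difference passed. The 9 reduced lists held 63 to 79 exonic peaks each, or 1.02% to 1.28%. EC-K4KO differed from WT Cre by 0.0379 points (exact test, adjusted p = 0.820) and old from young by -0.0135 points (exact test, adjusted p = 0.850). Median width differed by 19.1 bp for genotype and 20.9 bp for age (exact test, adjusted p = 0.275 for each), and median rank by 0.582 and -1.87 points (exact test, adjusted p = 0.836 and 0.733). In none of 6 measures did the test of the genotype difference between the ages pass (exact p = 0.133 to 0.917).

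The share of exonic peaks in last exons differed between the groups in the deposited lists. The last of 2 or more exons held 39.2% and 41.1% of exonic peaks in the young controls, 44.1% to 47.1% in the young knockouts, 49.8% and 51.3% in the old controls, and 52.0% and 53.0% in the old knockouts, with no overlap between the 4 groups. The lists also differed in length (6157 and 9598 peaks in the young controls, 45026 and 39079 in the old knockouts). The last-exon share was not tested in lists of equal length. The first of several exons held 21.2% and 21.5% in the young controls and 6.14% to 8.58% in the 4 old libraries. The last-exon share differed by 3.83 points for genotype and 8.48 points for age (exact test, adjusted p = 0.04 for each). Without the peaks near a GENCODE start the differences were -0.936 points (exact test, adjusted p = 0.800) and 2.51 points (exact test, adjusted p = 0.514), and the differences in number (312 and 580 peaks, exact test, adjusted p = 0.133 and 0.1) and share by genotype (0.688 points, exact test, adjusted p = 0.1) no longer passed either. Without any 1 of the 9 libraries none of the 5 calls stood (exact test, adjusted p = 0.0667 to 0.200), but with a smallest exact p of 0.0278 to 0.0417 in those designs, 7 to 10 of the 12 tests would have had to reach it for any call, so that this says nothing about stability.

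**Figure D3:**
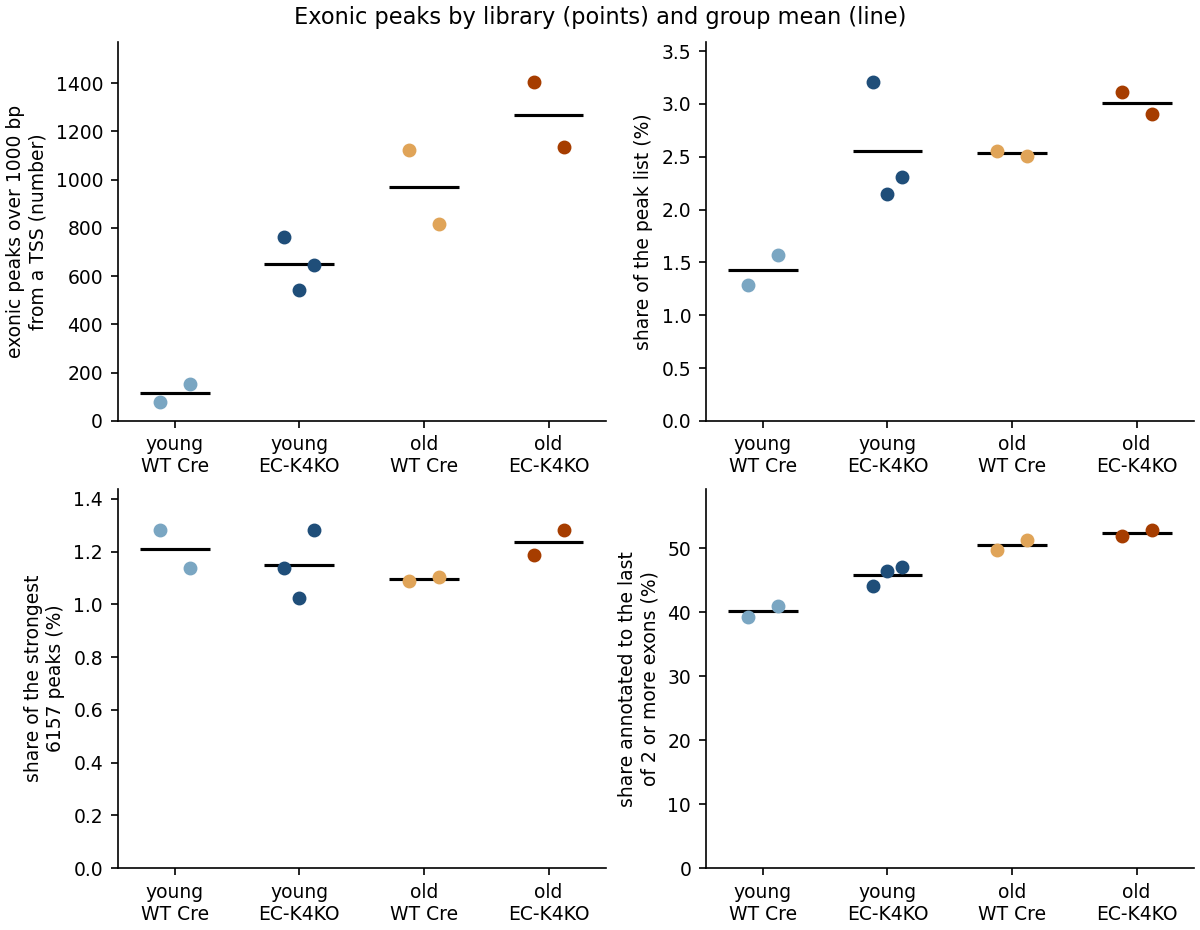
Points are the 9 libraries by group (x axis) and lines the group means for the number of exonic peaks, their share of the deposited list (%), their share of the strongest 6157 peaks (%) and the percentage annotated to the last of 2 or more exons (y axes start at 0). The number ran from 79 to 1403, and the share of the strongest peaks from 1.02% to 1.28%.

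Peaks of all libraries that shared at least 1 bp were merged into 92495 regions, and 2776 (3.00%) had an exonic peak as their strongest. They lay in exons of 2493 genes. In 2434 of them every peak was exonic, and in the rest a library could have a peak that overlapped the region but was centred outside the exon. Of these exonic regions 1601 (57.7%) had a peak in 1 library only, 459 of them in young EC-K4KO replicate 1, 330 in old EC-K4KO replicate 1 and 303 in old WT Cre replicate 1. At the other end 58 (2.09%) had a peak in all 9. In 7 or more libraries there were 7.60% of exonic, 5.89% of intronic, 5.21% of intergenic and 66% of promoter regions.

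Recurrent exonic regions were wider and richer in CG than rare ones, as were recurrent regions of the other classes. From 1 to 9 libraries, the mean width of exonic regions went from 312 to 626 bp and GC from 54.0% to 62.3%. Their ratio of observed to expected CpG went from 0.359 to 0.642 (promoter regions in 9 libraries had 0.836). Intronic regions went from 305 to 642 bp and from 0.194 to 0.345, and intergenic ones from 310 to 664 bp and from 0.174 to 0.464. A GENCODE start within 1000 bp was found for 17.4% of exonic regions in 1 library, 51.9% of those in 8 and 43.1% of those in 9. The CTCF motif had another course. It matched in 8.92%, 9.95% and 7.43% of exonic regions in 2, 3 and 4 libraries, against 2.31% of those in 1 and 5.17% of those in 9. In intronic regions it matched in 5.33%, 5.49% and 3.85%, against 1.73% and 0.624%. In intergenic regions it matched in 6.64%, 7.99% and 6.35%, against 1.33% and 0.912%. The AP-1 motif matched in 22.2% of the 99 exonic regions in 7 libraries and in 3.45% of the 58 in 9, the highest and lowest values. It matched in 6.93% to 14.5% of those in 1 to 6 libraries and in 3.70% of those in 8. In 7 and 9 libraries it matched in 18.7% and 20.6% of intronic and in 18.8% and 18.2% of intergenic regions.

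**Figure D4:**
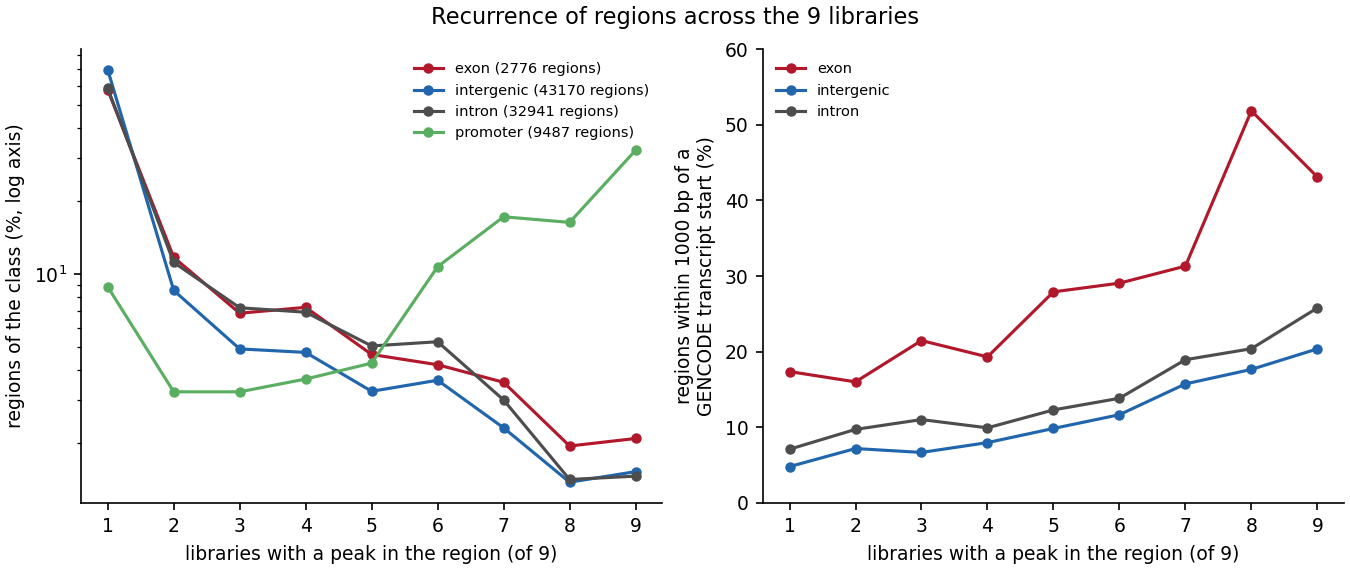
The x axis is the number of libraries (of 9) with a peak in a region. The left panel gives the percentage of regions of each class (log axis) and the right panel the percentage within 1000 bp of a GENCODE transcript start. Exonic regions fell from 57.7% in 1 library to 2.09% in 9, and the share near a start was 17.4% in 1 library, 51.9% in 8 and 43.1% in 9.

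The strongest of the exonic regions shared by all libraries was in Spaca6, a gene whose product acts in sperm-egg fusion. Its peak in exon 7 of 9 (chr17:17837776-17838610) had rank 5 and 6 in the young controls, 2, 1 and 12 in the young knockouts, 16 and 6 in the old controls, and 6 and 12 in the old knockouts, with a fold enrichment over local background of 9.81 to 13.3. It was in the front of every list. It lay 7226 bp from the TSS of the deposited annotation, 80 bp from another GENCODE start of Spaca6 and 6896 bp from Mir125a, which lies beside Mirlet7e and Mir99b.

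The next was in exon 2 of 6 of Angptl6, a secreted angiopoietin-like factor, whose window is printed above (chr9:20877999-20878718). Its ranks were 116 and 143 in the young controls, 68, 24 and 24 in the young knockouts, 107 and 43 in the old controls, and 31 and 37 in the old knockouts, with folds of 8.08 to 13.8. The closest GENCODE start was 1369 bp away. The region of the single-exon gene Jund, which encodes an AP-1 subunit, ranked between 88 and 776 and was centred 14 bp from a GENCODE start of Jund although the deposited TSS lay 1196 bp away. By GENCODE the centre of its strongest peak was intergenic, so that it was exonic by the deposited annotation only.

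Further regions shared by all 9 libraries had mean ranks of 2.35% to 9.31% of their lists. Those described here lay in the 3′ UTR of Vcl (vinculin, which ties adhesion sites to actin), H13 (signal peptide peptidase), Slc16a5 (a monocarboxylate carrier) and Rassf4, in the 5′ UTR of Fdft1 (squalene synthase), and in CDS of Bcat2 (a branched-chain aminotransferase), Carns1 (carnosine synthase) and Prdm2 (a zinc-finger methyltransferase). Vcl exon 21 of 21 ranked 436 and 360 in the young controls, 534, 894 and 437 in the young knockouts, 384 and 319 in the old controls, and 277 and 209 in the old knockouts. All 9 Vcl ranks thus lay between 209 and 894, in lists of 6157 to 45026 peaks. Fdft1 and Carns1, like Spaca6 and Jund, were within 1000 bp of a GENCODE start, that near Carns1 being a start of Gm17552. The regions of Vcl, H13, Bcat2, Slc16a5 and Rassf4 were in a last exon.

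**Figure D5:**
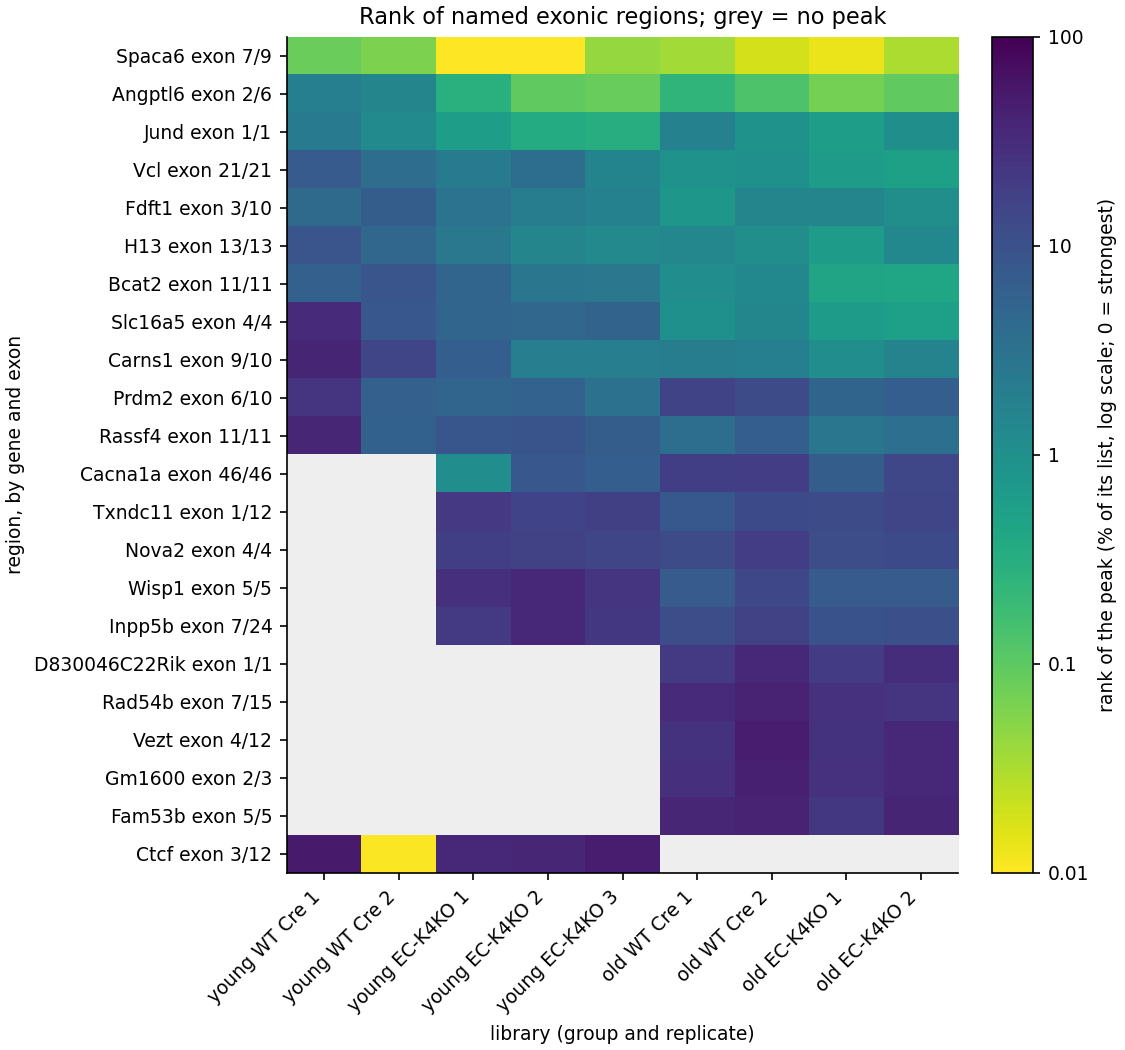
Rows are exonic regions named by rule, columns are the 9 libraries, and colour is the rank of the peak as a percentage of its list (log scale, 0 is the strongest; grey marks no peak). The top rows, from Spaca6 to Rassf4, have a peak in all 9 libraries, the next 5 in all but young WT Cre, the next 5 in the 4 old libraries only, and the Ctcf row in the 5 young libraries only.

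Regions were then compared between groups. A region counted as present in a group with a peak in at least 2 of its libraries and as absent with none, and the background is the same count over all regions with a peak in at least 2 of the libraries compared. From young WT Cre to young EC-K4KO, 237 of 370 exonic regions (64.1%) appeared, against 51.6% of all regions and 69.4% of intronic ones, and 0 were in young WT Cre alone, against 0.00547%. From young WT Cre to old WT Cre, 483 of 614 (78.7%) appeared, against 64.5%, and 1 (0.163%) was lost, against 0.00401%. From young EC-K4KO to old EC-K4KO, 390 of 1012 (38.5%) appeared, against 29.9%, and 17 (1.68%) were lost, against 1.15%. From old WT Cre to old EC-K4KO, 164 of 1094 (15.0%) appeared, against 11.8%, and 14 (1.28%) were lost, against 1.06%. Exonic shares stood between those of all regions and of intronic regions in all 4 gains.

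The counts were smaller in lists of equal length. With the 6157 strongest peaks of each library, 15 exonic regions (17.2%) appeared in young EC-K4KO against young WT Cre and 7 (8.05%) were lost, with backgrounds of 10.2% and 2.6%. For old against young WT Cre it was 9 (12.2%) and 10 (13.5%), against 11.1% and 6.54%. For old against young EC-K4KO it was 12 (13.5%) and 13 (14.6%), against 5.97% and 11%. For old EC-K4KO against old WT Cre it was 9 (11.2%) and 6 (7.5%), against 3.32% and 3.62%. Intronic shares in these lists, gained and then lost, were 10.2% and 6.87%, 18.4% and 9.52%, 18.2% and 10.3%, and 9.68% and 7.61%. They follow the same order of comparisons. Single libraries weighed on the exonic counts of the deposited lists as well, where a group left with 1 library needed a peak in that library alone. The 237 fell to 105 without young EC-K4KO replicate 2 and to 104 without replicate 3. The 483 rose to 979 without old WT Cre replicate 2, and the 390 to 794 without old EC-K4KO replicate 2. The 164 rose to 263, 264, 315 and 520 without old WT Cre replicate 1, old WT Cre replicate 2, old EC-K4KO replicate 1 and old EC-K4KO replicate 2.

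Among the 88 exonic regions found in both old groups and the young knockouts, 7 libraries in all, but in neither young control (3.17% of exonic regions, 3.94% of all), the best ranked was in exon 46 of 46 of Cacna1a, the gene of a P/Q-type calcium channel (chr8:84639156-84639914). It ranked 258, 2090 and 1815 in the young knockouts, 7849 and 6139 in the old controls, and 3006 and 5471 in the old knockouts. Its best rank was thus in young EC-K4KO replicate 1. GENCODE placed another start of Cacna1a 455 bp away. The others named by rule were Txndc11 exon 1 of 12 (ranks 3537 to 5739, centred in the exon in 5 libraries, a GENCODE start at 133 bp), Nova2 exon 4 of 4 (4129 to 6171), Wisp1 exon 5 of 5 (2777 to 9180) and Inpp5b exon 7 of 24 (4135 to 8697, a start of Gm12915 at 222 bp). Nova2 encodes a splicing regulator and Wisp1 a secreted matricellular protein, and both regions lay in the 3′ UTR. All of these ranks were under 9598, the length of the longer young control list, and not all were under 6157, that of the shorter.

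In exonic regions of all 4 old and no young libraries, of which there were 129 (4.65% of exonic regions, 3.81% of all), ranks were lower. The best was in the single-exon D830046C22Rik (ranks 8877 to 11917). Rad54b exon 7 of 15, of a gene of homologous recombination, ranked 14408 and 13681 in the old controls and 11964 and 9549 in the old knockouts (chr4:11599502-11599843). Vezt exon 4 of 12, of a cell-junction protein, ranked between 11446 and 15322, and Gm1600 exon 2 of 3 and Fam53b exon 5 of 5 between 10018 and 16174. All of these ranks were beyond 6157 and most beyond 9598, the lengths of the young control lists, but within those of the young knockouts (23848 to 27992). The peak was centred in the exon in 2 of the 4 libraries for Rad54b, 3 for Vezt, 2 for Gm1600 and all 4 for the other regions named.

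The rule named further regions. Capn2 exon 6 of 21, of the protease calpain 2, had a peak in the 6 libraries other than young WT Cre and young EC-K4KO replicate 1, at ranks from 3844 to 5209 (centred in the exon in 3), 19 bp from a start of Gm37885. Synm exon 4 of 4, of the filament protein synemin, had one in the same 6 libraries at ranks from 3050 to 8295. In old EC-K4KO and not old WT Cre the named regions were Cst6 exon 3 of 3, Sestd1 exon 18 of 18 and Rab3gap2 exon 30 of 35, at ranks of 15917 to 23024 in the old knockouts, the first 2 of them with a peak in young EC-K4KO replicate 3 as well. In old WT Cre and not old EC-K4KO they were Naca exon 3 of 9, Ski exon 7 of 7 and Clec9a exon 7 of 7, at ranks of 14812 to 19216. In old and not young EC-K4KO the best after D830046C22Rik and Rad54b was P2rx3 exon 11 of 12, and in young and not old EC-K4KO the best after Ctcf were Simc1 exon 2 of 10 and Oit1 exon 6 of 10.

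In lists of equal length, exonic regions lost with age (10 in WT Cre, 13 in EC-K4KO) numbered about as many as those gained (9 and 12). In the deposited lists, of all 92495 regions of any class, 1 had a peak in all 5 young and no old libraries, and it was in exon 3 of 12 of Ctcf, the gene of the insulator protein (chr8:105663787-105665018). The peak was the strongest of the whole list in young WT Cre replicate 2 (rank 1 of 9598, fold 5.66). It ranked 3132 of 6157 in young WT Cre replicate 1 (fold 4.41) and 8126, 9578 and 13557 in the young knockouts (folds 3.45, 4.54 and 3.97). Young WT Cre replicate 2 thus stood above the other 4 by far in rank and by less in fold (5.66 against 3.45 to 4.54). The region began 33 bp inside the start of an exon (105663754-105664543) and ended 8 bp before the end of the next (105664856-105665026), and in 4 of the 5 libraries the peak reached both exons across the intron of 312 bp between them. GENCODE had no start within 3615 bp, and the printed window held 3 CG dinucleotides and no match to the 4 motifs. The reads behind this peak were not analysed here, and the region is uncertain for that reason. Each of the 4 old libraries had 1 peak in Ctcf, at the start of the gene.

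Of 25 endothelial marker genes 8 (32%) had an exonic region in any library and 5 (20%) one in 2 or more libraries, against 10.4% and 4.61% of 21924 protein-coding genes. The median exonic length of the endothelial list was 4712 bp and that of all protein-coding genes 3500 bp, and genes with an exonic region were longer (5606 bp) than those without (3293 bp), which was not adjusted for. The 8 were Kdr, Cdh5, Eng, Esam, Mfsd2a, Slco1a4, Sox18 and Vwf.

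Kdr, the main VEGF receptor of ECs, had 4 exonic regions. The one in exon 30 of 30, in the 3′ UTR (chr5:75933478-75934282), was in all 9 libraries and ranked 3409 and 7710 in the young controls, 5181, 5510 and 3059 in the young knockouts, 4157 and 3106 in the old controls, and 4258 and 2997 in the old knockouts, with folds of 3.77 to 10.5. The region in exon 27 ranked 17772 in young EC-K4KO replicate 3, 9899 and 14991 in the old controls and 11281 and 10888 in the old knockouts. Exon 2 had a peak in old WT Cre replicate 1 and old EC-K4KO replicate 2, where the overlapping peak of old WT Cre replicate 2 was centred in intron 1, and exon 15 had one in old EC-K4KO replicate 1. Kdr thus had an exonic peak in every library, 1 or 2 in the young and 2 or 3 in the old. Slco1a4, an organic anion carrier of the blood-brain barrier, had a peak in exon 9 of 17 in the 4 old libraries (ranks 14100 to 18779). Vwf, the clotting factor stored by ECs, had a region at exon 14 of 52 with peaks in the 6 libraries other than young WT Cre and young EC-K4KO replicate 1 (ranks 8716 to 16474, centred in the exon in 5), 70 bp from another GENCODE start of Vwf.

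The other lists were read against the same shares of protein-coding genes, 10.4% in any library and 4.61% in 2 or more. Of 15 mural genes 4 (26.7%) had an exonic region (Notch3, Myh11, Cspg4 and Acta2), of 15 astrocyte genes 2 (13.3%, Gfap and Slc1a2), of 15 neuronal genes 1 (6.67%, Rbfox3), of 15 oligodendrocyte genes 4 (26.7%, Mag, Mbp, Olig2 and Pdgfra, each in 1 library) and of 15 microglial genes 0. In 2 or more libraries such a region was found in 2 mural genes (13.3%), 2 astrocyte genes (13.3%), 0 neuronal, 0 oligodendrocyte and 0 microglial genes. Notch3, the mural receptor, had 1 exonic region in exon 33 of 33 in 8 libraries, all but young WT Cre replicate 1. Of 18 AP-1 and immediate early genes 6 (33.3%) had one (Jund, Fosb, Fosl2, Nr4a1, Atf3 and Egr3), and 4 (22.2%) in 2 or more libraries, beside 32% and 20% for the endothelial list. Both AP-1 counts include Jund, whose region was exonic by the deposited annotation and intergenic by GENCODE. Of 26 KLF and SP genes 9 (34.6%) had one, and 3 (11.5%) in 2 or more, of which Klf1 exon 2 of 3 was in 8 libraries and Sp6 exon 2 of 2 in 7. Klf4 had an exonic peak in exon 3 of 5 in old WT Cre replicate 1 only (chr4:55530284-55530519, rank 21839 of 43893, fold 2.12) and in no EC-K4KO library.

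Gene families defined by their names were counted too. Clustered protocadherins, whose large variable exons each encode an adhesion protein, had an exonic region in 27 of 56 genes (48.2%), but in only 3 genes (5.36%) was it in 2 or more libraries, and 18 had it in young EC-K4KO replicate 1 alone. The counts were 58 of 466 for C2H2 zinc fingers (12.4%, and 3.43% in 2 or more libraries) and 4 of 39 for Hox genes (10.3% and 2.56%). They were 15 of 44 for collagens (34.1% and 9.09%), 3 of 53 for keratins (5.66%), 8 of 1134 for olfactory receptors (0.705%) and 0 of 67 for replication-dependent histones. Young EC-K4KO replicate 1 alone supplied 353 of the 2273 protein-coding genes with an exonic region.

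Most genes had 1 exonic region, and 246 had 2 or more. The cytolinker gene Dst and the titin gene Ttn had 5 each, and Kdr, the long noncoding RNA gene Neat1 and Soga1 had 4. The 5 Ttn regions and the 4 Neat1 regions were each in 1 library. A further 25 genes had 3 each, of which Ablim1, Atp9a, Cacna1c, Chst15 and Ddn are the first in alphabetical order. In Chst15, a sulfotransferase gene, the region at exon 5 had peaks in 5 libraries (centred in the exon in 2) and that at exon 8 in all 4 old ones.

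The widest exonic region by mean peak width lay in Agpat2, which encodes an enzyme of phospholipid synthesis (exon 5 of 6, chr2:26593436-26596267). It had peaks in 8 libraries, all but young WT Cre replicate 1 and centred in the exon in 2, with a mean width of 2056 bp (990 to 2822 bp) and low folds of 2.22 to 3.06. It lay 753 bp from Egfl7, an endothelial gene that hosts Mir126a, whose hairpin lay 2006 bp away. The other wide regions were in Arid5b and Bspry (1 library each, young EC-K4KO replicate 1) and Tbx3os2 and Ppp1r10 (the 4 old libraries each), with mean widths of 1386 to 1598 bp.

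Just inside the distance limit of 1000 bp were B3gat2 exon 1 of 4 at 1001 bp, and Neurog2 exon 2 of 2 and Skida1 exon 1 of 1 at 1002 bp. Just outside were Gm17762 and Ltb4r2 at 998 bp and C030034I22Rik at 995 bp. Between 900 and 1100 bp there were 82 exonic peaks inside, with a median width of 420.5 bp and a median rank of 61.9%, and 80 outside, with 564.5 bp and 62.9%.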

How the data were processed

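Per the labels, brain EC nuclei of 9 libraries in 4 groups were profiled by Omni-ATAC-seq. The submitters' processing notes name Bowtie2, MACS2 and the build mm10 (GRCm38). The authors called broad peaks in each library alone and annotated them with HOMER (per the file headers), which gives a class, an exon and a distance to the TSS for each peak centre. Deposited with each peak are a score (the -log10 q times 10), a -log10 p and a fold, the ratio of signal over local background. The authors' -log10 p ordered the peaks of a list (rank) and their q-value served as a filter in alternatives. Read counts were not analysed here, so depth is unknown and errors are the spread between libraries. The study calls the libraries biological replicates, and the labels do not say whether each came from a separate animal, so p-values measure the spread between these libraries.

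Exonic peaks were compared in Python 3.11.15 (numpy 2.4.6, pandas 2.3.3) with samtools 1.23.1 for the GRCm38 sequence and the full GENCODE M21 annotation for features and transcript starts. Group tests were two-sided exact permutations within strata (12 tests), and class tests were exact sign flips over 9 libraries (16 tests, smallest p 0.0039), both with BH adjustment. The interaction of genotype and age was tested in 6 measures. Scripts were tested on simulated data. A motif was searched on both strands of the central 300 bp. CTCF is given by name. Alternatives were stricter q-values, other distance limits, ranking by fold, the strongest peaks only, GENCODE starts, a replicate block and leaving out each library. No test was run on regions counted between groups or on gene lists.

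Named regions were the 12 best-ranked in all 9 libraries, the 3 best of each group comparison, the 5 best of each age or genotype pattern, the 5 widest, the 10 genes with most regions, and all genes of the lists (6 cell types, AP-1, KLF and SP, and 7 families by name), except that 1 shared region and 1 list are not reported here. The 5 young libraries as a pattern were added after the data were seen. Members and lists were chosen with earlier results of these data known.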

Additional observations from a re-analysis of the deposited data

How the results depend on the processing

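All 5 group differences that passed kept their direction in each alternative, except the last-exon share by genotype with peaks near a GENCODE start left out (chosen after seeing the data), which gave -0.936 points. With that choice the last-exon share by age was 2.51 points, the numbers differed by 312 (genotype) and 580.1 (age) and the share of the list by genotype by 0.688 points, and none of these passed. The last-exon share by genotype also missed the threshold at q under 0.05 (3.55 points), at q under 0.01 (3.65) and over 3000 bp from a TSS (3.74), as did the number by genotype over 500 bp from a TSS (454 peaks). The share of the list by age passed at q under 0.01 (1.09 points). The rank by age, which had not passed, turned at q under 0.01 (1.31 points), and the share of the strongest peaks by age turned over 3000 bp (0.0135 points), with ranking by fold (0.110) and with the GENCODE starts (0.0501).

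With the replicate number as a block (4 pairs, smallest exact p 0.125, so that no call was possible), the differences in number were 419 and 735 peaks, in share by genotype 0.863 points and in last-exon share 3.53 and 8.78 points, and the share of the strongest peaks by age turned to 0.0203 points. The labels give same-numbered libraries only a number in common and do not say whether they were prepared together. Correlations of their deviations from the group means were -0.0132 to 0.0607. In a group of 2 libraries the deviations mirror each other, so these correlations are not independent and cannot show whether the libraries were paired.

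Without each library in turn, the number differed by 341 to 494.5 peaks for genotype and 659.5 to 813 for age, the share by 0.638 to 0.902 and 0.680 to 0.944 points, the share of the strongest peaks by 0.00135 to 0.0744 and -0.0501 to 0.0230 points, width by 9 to 29.25 and 10.75 to 31 bp, rank by -0.960 to 2.12 and -3.42 to -0.331 points, and last-exon share by 3.37 to 4.28 and 8.02 to 8.93 points. Directions that turned were the share of the strongest peaks by age without young WT Cre replicate 1 (0.0230), young EC-K4KO replicate 3 (0.0203) or old EC-K4KO replicate 1 (0.0108), and rank by genotype without young WT Cre replicate 1 (-0.960) or old WT Cre replicate 1 (-0.877).

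Of the differences from intronic and intergenic peaks, GC, AP-1 and CTCF passed in every alternative. At q under 0.01, width against intergenic (11.4 bp), recurrence (2.08 points against intronic, 1.39 against intergenic) and ETS (0.510 and 1.34) no longer passed, and rank (1.67) and KLF (-1.85) against intergenic turned. Over 3000 bp, width against intergenic (15 bp) no longer passed and KLF against intronic turned (0.549). Among the strongest peaks, recurrence (1.91 and 1.18) and ETS (0.0302 and 0.555) no longer passed, rank against intronic passed (-6.42) and KLF against intergenic turned (-1.81). Recurrence against intronic missed at 50% overlap (3.53). With the GENCODE starts, width (4.89 and 3.67 bp), recurrence (1.38 and 4.60) and ETS (0.298 and 1.86) missed and KLF against intronic turned (0.325).

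Without each library in turn, against intronic and then intergenic peaks, GC differed by 7.32 to 7.79 and 6.88 to 7.30 points, AP-1 by -8.09 to -7.04 and -5.98 to -4.93, CTCF by 2.14 to 2.49 and 1.56 to 1.84, ETS by 0.867 to 1.46 and 2.24 to 2.94, KLF by -0.501 to 0.170 and -0.183 to 0.505, width by 18.1 to 23.25 and 15.1 to 21.9 bp, rank by -2.34 to -0.694 and -5.28 to -3.39, and recurrence by 3.12 to 5.08 and 6.52 to 8.57. KLF turned against intronic without young WT Cre replicate 1 (0.078) or 2 (0.170) and against intergenic without old WT Cre replicate 1 (-0.183). The calls of recurrence and ETS against intronic were each lost without any 1 of 6 libraries, namely young WT Cre replicate 2, young EC-K4KO replicates 2 and 3, both old WT Cre libraries and, for recurrence, young WT Cre replicate 1 or, for ETS, young EC-K4KO replicate 1 (exact test, adjusted p = 0.0568 to 0.0729, smallest p 0.0078). Rank against intergenic passed without old EC-K4KO replicate 1 (-5.28) or 2 (-5.17).

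Exonic regions gained and lost in the strongest lists numbered 15 and 7 (young EC-K4KO against young WT Cre), 9 and 6 (old EC-K4KO against old WT Cre), 9 and 10 (old against young WT Cre) and 12 and 13 (old against young EC-K4KO). In the same order, leaving out 1 library gave 104 to 297 and 0 to 28, 263 to 520 and 21 to 339, 489 to 979 and 1 to 31, and 412 to 794 and 2 to 24. The losses rose most without young WT Cre replicate 1 (28 and 31) or 2 (13 and 14) and old WT Cre replicate 1 (99), old WT Cre replicate 2 (339) or old EC-K4KO replicate 1 (34), and fell without young EC-K4KO replicate 1 (2), 2 (7) or 3 (10). Counting regions with any exonic peak kept all 8 counts within 1.5 times. Of 115 named regions, 14 changed their number of libraries at q under 0.05 and 61 at q under 0.01 (chosen after seeing the data). Read depth is unknown and groups hold 2 or 3 libraries.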
